A study of Danio rerio with 8 samples.

Results

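The 9 genes described here act in the class I pathway of antigen presentation, and they were picked by symbol from the 32057 Ensembl genes of the count table. They are the heavy chain genes *mhc1uba* and *mhc1zba*, the light chain gene *b2m*, the proteasome beta subunit genes *psmb8a*, *psmb9a*, *psmb12* and *psmb13a*, the peptide transporter gene *tap2a* and the tapasin gene *tapbp.1*. All 9 were found. Of these, 7 lay within 105.892 kb of Chromosome 19 (GRCz11), in the core MHC of zebrafish, while *mhc1zba* lay on Chromosome 1 and *b2m* on Chromosome 4.

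In class I presentation the proteasome cuts cytosolic proteins into peptides, the TAP transporter moves them into the endoplasmic reticulum, and tapasin helps to load them on a heavy chain that is paired with beta-2 microglobulin. The loaded complex is then shown at the cell surface to T cells. In zebrafish the core MHC is highly polymorphic, and haplotypes of one locus can differ in which class I genes they hold. Many genes of the pathway are induced by interferon and are strongly expressed in immune cells, which are still few in the early embryo.

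The 8 libraries held polyA+ RNA of pooled whole embryos at 2 days post-fertilisation (dpf), with 1 clutch to a library. The mutant clutches, named S2, S4, S5 and S8, carried the hu2787 nonsense allele (written h2787 in the sample labels) on both copies of *fmr1*, and the wild type clutches were named A, D, G and L. All parents descended from a single imported population in which some fish also carried the w2 allele of *mitfa*, and that allele was present in some clutches. Heterozygous fish of that population were crossed, and the parents were chosen among their progeny, so parents of different clutches could be related. The 8 parental pairs were all different, so that each clutch holds only the MHC haplotypes of its own pair, and the clutches of one genotype differ in their parents as well as in the embryos sampled. The question asked of each gene was in which clutches it was detected, and whether its level differed between the genotypes.

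Total counts per library were 29726950 to 31122824 in mutant clutches and 29296538 to 33205738 in wild type clutches. The targeted gene *fmr1* had 605 to 772 counts in mutant clutches and 1249 to 1736 counts in wild type clutches (log2 fold change -1.22, SE 0.105, quasi-likelihood FDR 0.00551), so the genotypes did not overlap. Along the first principal component of all genes tested, which carried 29.6% of the variance, wild type clutches A and D lay at 57.4 and 62.3 and the other 6 clutches between -42.5 and 4.23. Counts of genes called are therefore also given without A and D. Of the 23567 genes tested, which had over 1 count in 4 or more libraries, 3 (0.0127%) passed an FDR of 0.05 in edgeR's quasi-likelihood test of mutant against wild type. Without A and D none passed, while 1236 genes had an unadjusted *p*-value under 0.05. That fit kept only G and L as wild type clutches and has less power, so the lack of calls cannot be laid to A and D.

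The clearest feature of the 9 genes was the presence or absence of *mhc1uba* from clutch to clutch. This gene encodes a classical heavy chain of the U lineage, the lineage of zebrafish that presents peptides to T cells, and spans 7072854 to 7101100 of the forward strand of Chromosome 19 (ENSDARG00000075963). Among mutants it had 0, 216, 0 and 0 counts in S2, S4, S5 and S8, and among wild types 51, 0, 181 and 124 counts in A, D, G and L. Thus 3 mutant clutches and 1 wild type clutch had no read at all, while the other 4 clutches each had over 50. As counts scaled to library size (CPM, normalised by TMM), S4 stood at 6.55, and A, G and L stood at 1.64, 5.66 and 4.68. A count of 0 allows up to 3 counts, which was 0.0861 CPM in S2, 0.110 CPM in S5, 0.0965 CPM in S8 and 0.0864 CPM in D. This limit covers counting error only.

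A gene was called absent in a clutch at 3 counts or fewer and present at 20 counts or more. By this rule *mhc1uba* was the only one of the 9 genes that was absent in some clutches and present in others, against 574 of all 32057 genes (1.79%), or 2.77% of the 20713 genes with at least 20 counts in some clutch. It remained the only one when presence was set at 10 or 50 counts, when absence was set at 0 counts, without A and D, and when each clutch was left out in turn. The counts fix this outcome, as *mhc1uba* had 4 clutches at 0 counts and 4 at 51 or more. No other member had clutches both at 3 counts or fewer and at 10 or more. These settings are therefore no separate support.

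**Figure D1:**
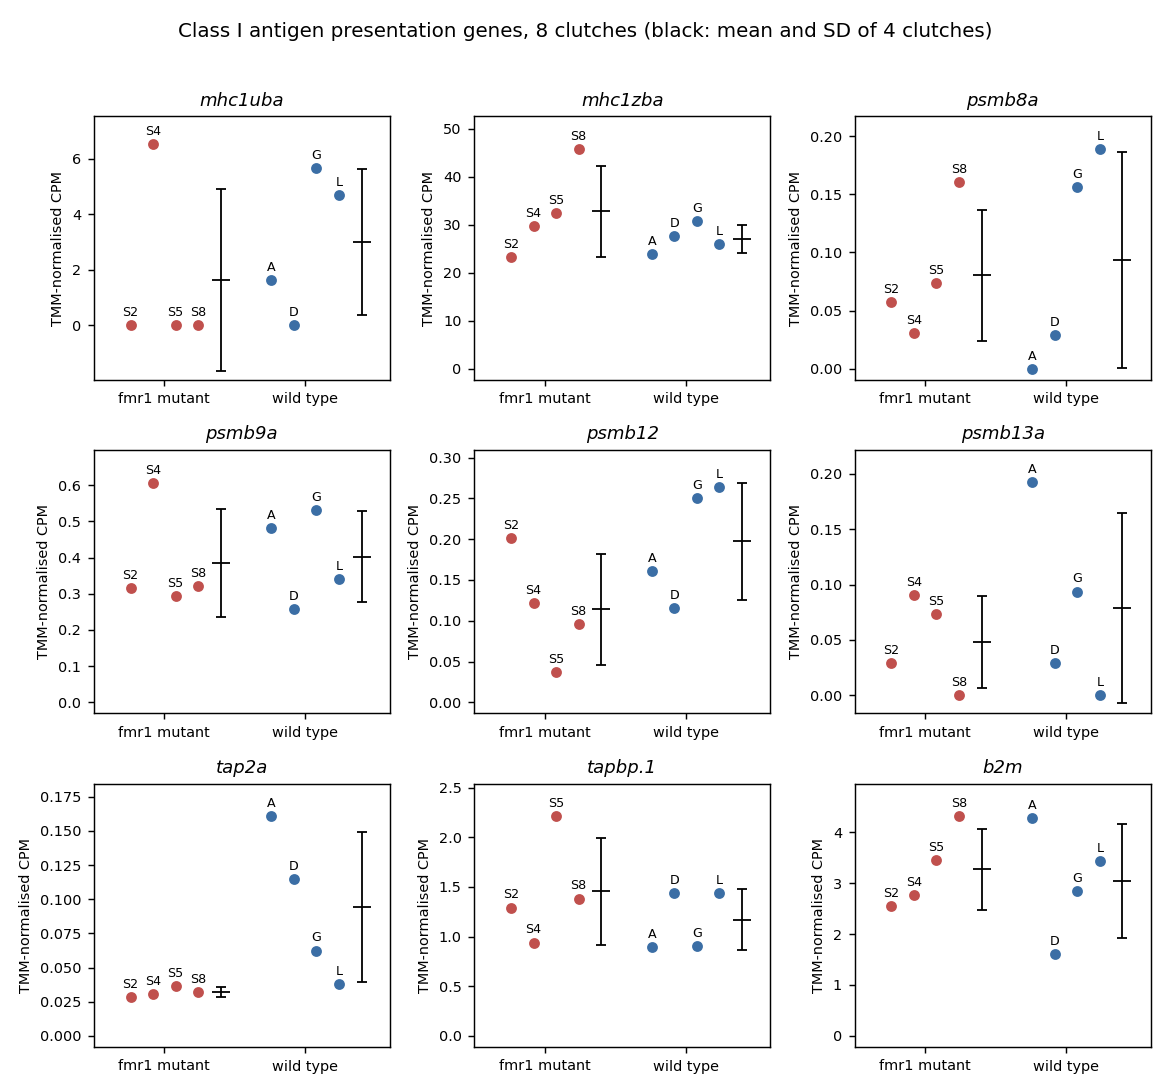
Normalised level (CPM, linear axis) of each of the 9 genes in each clutch, with *fmr1* mutant clutches in red on the left and wild type clutches in blue on the right of each panel. Black bars give the mean and SD of 4 clutches. For *mhc1uba*, S4 stands at 6.55 CPM and the other mutant clutches at 0, and D is the wild type clutch at 0.

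Both genotypes therefore held clutches with and without *mhc1uba* reads, and the genotypes overlapped. Its level averaged 1.64 ± 3.27 CPM in mutant clutches and 2.99 ± 2.63 CPM in wild type clutches (SD, n = 4 each), with a log2 fold change of -0.85 (SE 1.52, 95% interval -4.22 to 2.52, quasi-likelihood FDR 0.874). The estimate was -3.42 with limma-voom and -0.40 to -1.24 in the 4 fits without a clutch that could test it, and it was not tested without S4. The interval reaches from far lower to far higher in mutants, so that no genotype difference was detectable against a spread between clutches of this size. The reads were aligned to 1 reference haplotype and only uniquely placed reads were counted. A clutch whose haplotypes lack the gene, a clutch whose copy is too diverged to align and a clutch in which the gene is silent would all read 0 here, and these cannot be told apart from the counts.

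Between the outermost of the 7 core genes the annotation holds 9 genes in all, the other 2 being the U lineage gene *mhc1uca* and the second tapasin gene *tapbp.2*. The gene *mhc1uca* (7043634 to 7051481, forward strand) had 0, 23, 0 and 0 counts in S2, S4, S5 and S8, against 3, 0, 1 and 0 counts in A, D, G and L. It was thus present in S4 alone, which is also the mutant clutch with *mhc1uba* reads, and was at or under 3 counts in all 4 wild type clutches, including 3 with *mhc1uba*.

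Tapasin bridges the empty heavy chain to the peptide transporter, and *tapbp.1* (7038694 to 7043355, reverse strand, ENSDARG00000079402) was present in every clutch. It had 45, 31, 60 and 43 counts in S2, S4, S5 and S8, against 28, 50, 29 and 38 counts in A, D, G and L. The means were 1.46 ± 0.537 CPM in mutant clutches and 1.17 ± 0.309 CPM in wild type clutches, and the genotypes overlapped (log2 fold change 0.31, SE 0.327, quasi-likelihood FDR 0.769). The second copy *tapbp.2* lies in the same interval and had 39, 16, 36 and 42 counts in mutant clutches and 41, 56, 18 and 9 counts in wild type clutches. Its log2 fold change was 0.14 (SE 0.497, quasi-likelihood FDR 0.941).

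Vertebrate cells exposed to interferon exchange the catalytic beta subunits of the proteasome for inducible ones, which favours peptides that fit class I molecules. Of these inducible genes, *psmb8a* (7105838 to 7144548, reverse strand, ENSDARG00000001303) had 2, 1, 2 and 5 counts in S2, S4, S5 and S8, against 0, 1, 5 and 5 counts in A, D, G and L. It was at or near the limit of 3 counts in every clutch, and 5 of the 8 clutches counted as absent with none as present. Its log2 fold change was -0.17 (SE 0.924, quasi-likelihood FDR 0.963), and the sign of that value changed with single clutches.

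The gene *psmb9a* (7120380 to 7122373, forward strand, ENSDARG00000000656) had 11, 20, 8 and 10 counts in S2, S4, S5 and S8, against 15, 9, 17 and 9 counts in A, D, G and L. It was the only one of the 4 proteasome members that was over 3 counts in all 8 clutches, with S4 the highest mutant clutch. The log2 fold change was -0.06 (SE 0.409, 95% interval -0.97 to 0.84, quasi-likelihood FDR 0.972), and the sign of this value too changed with single clutches.

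Fish carry further beta subunit genes in the MHC, among them *psmb12* and *psmb13a*. *psmb12* (7115223 to 7119456, forward strand, ENSDARG00000031885) had 7, 4, 1 and 3 counts in S2, S4, S5 and S8, against 5, 4, 8 and 7 counts in A, D, G and L. The genotypes shared the range from 4 to 7 counts, and the log2 fold change was -0.72 (SE 0.565, 95% interval -1.97 to 0.52, quasi-likelihood FDR 0.672). Without A and D, *psmb12* did not overlap between the genotypes, with all 4 mutant clutches below G and L, as was the case in either direction for 15.1% of all genes tested in those 6 clutches. *psmb13a* (7111779 to 7144585, reverse strand, ENSDARG00000001656) had 1, 3, 2 and 0 counts in mutant clutches and 6, 1, 3 and 0 counts in wild type clutches (log2 fold change -0.70, SE 1.04, quasi-likelihood FDR 0.834). Only A was over 3 counts for it.

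One subunit of the TAP transporter is encoded by *tap2a* (7124337 to 7132315, forward strand, ENSDARG00000036787), which had 1 count in each of the 4 mutant clutches and 5, 4, 2 and 1 counts in A, D, G and L. The sums were 4 counts in mutant clutches and 12 counts in wild type clutches. It did not pass the filter on low counts and was the 1 gene of the 9 left untested in the fit over all genes. On the CPM scale the genotypes did not overlap and an exact two-sided permutation test gave *p* = 0.0286, the smallest value that 70 arrangements of 8 clutches allow. All mutant clutches and wild type clutch L had a single count, so that this separation rests on library size rather than on a difference in reads between those clutches. The other TAP genes matched had more reads. *tap2t* on Chromosome 12 had 91 to 125 counts in mutant clutches and 91 to 127 counts in wild type clutches (log2 fold change -0.05, SE 0.209, quasi-likelihood FDR 0.956). *tap1* on Chromosome 16 had 7 to 24 counts in mutant clutches and 9 to 21 counts in wild type clutches (log2 fold change -0.28, SE 0.416, quasi-likelihood FDR 0.842).

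The small counts of *psmb8a*, *psmb13a* and *tap2a* come with a limit of annotation. The annotated exons of *psmb8a* and *psmb13a* share 352 bases on the same strand, which is 21.7% of *psmb8a* and 23.7% of *psmb13a*. Reads from the shared bases could not be given to a single gene. The exons of *tap2a* also overlap those of *psmb8a* by 300 bases and those of *psmb13a* by 258 bases, on the opposite strand, where counting was by strand. How much this lowered the counts of *psmb8a* and *psmb13a* was not tested. The limit of the reference haplotype, given above for *mhc1uba*, holds for the other core genes too. Their low counts cannot tell weak expression from a copy that is missing or too diverged to align. The listed symbols *psmb8f*, *psmb9b*, *psmb13b* and *tap2d* were not matched, so any reads of these copies are not seen here.

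**Figure D2:**
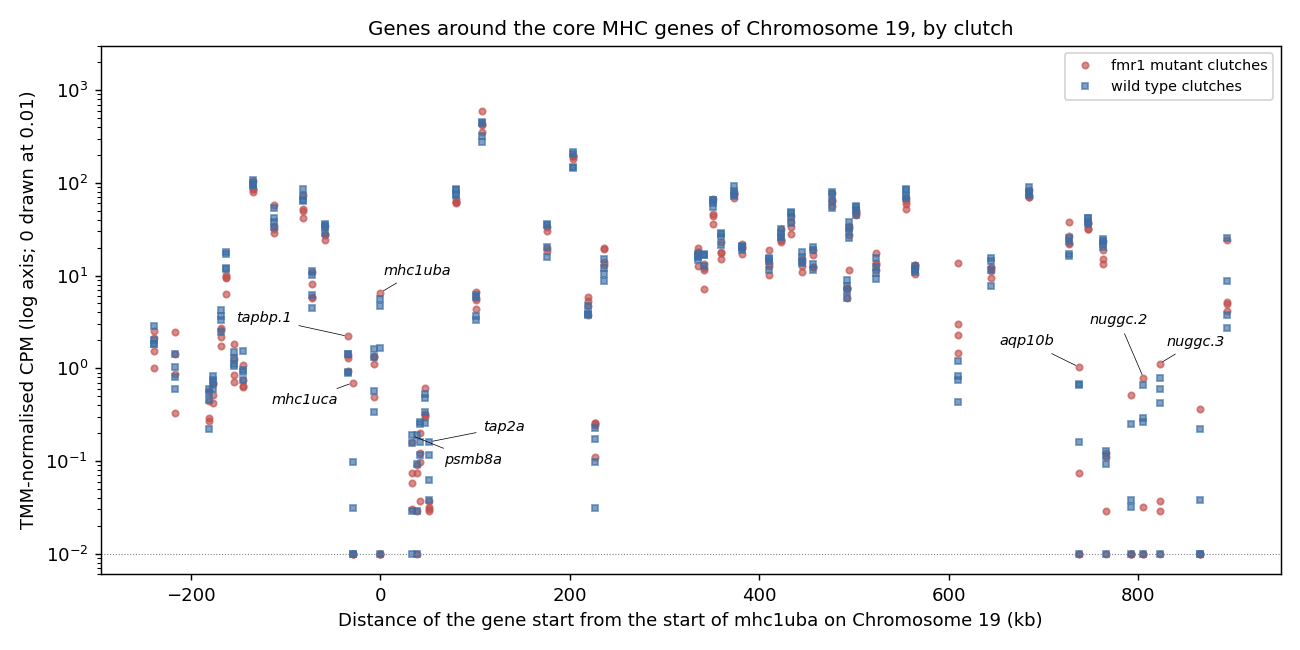
Normalised level (CPM, log axis, with 0 drawn at 0.01) of each gene against the distance of its start from the start of *mhc1uba* on Chromosome 19, from 250 kb before to 1000 kb after. Red circles are *fmr1* mutant clutches and blue squares wild type clutches, and the 61 of 73 genes with over 3 counts in some clutch are drawn. Of these, 48 had over 3 counts in all 8 clutches, and the genes with clutches at 0 sit in the core MHC and towards the far end of the window, around *nuggc.2* and *nuggc.3*.

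Outside the core, *mhc1zba* (Chromosome 1, 47155424 to 47161996, reverse strand, ENSDARG00000036588) was the most abundant of the 9 genes per length. It encodes a heavy chain of the Z lineage, a group found in fish whose peptide groove is more conserved than that of the U lineage. It had 811, 979, 879 and 1421 counts in S2, S4, S5 and S8, against 746, 962, 987 and 688 counts in A, D, G and L. All 8 clutches had the gene, S8 was the highest, and the other mutant clutches lay among the wild type clutches or close to them. The means were 32.8 ± 9.43 CPM in mutant clutches and 27.1 ± 2.91 CPM in wild type clutches, a ratio of 1.21 (log2 fold change 0.27, SE 0.185, 95% interval -0.14 to 0.68, quasi-likelihood FDR 0.632). Without S8 the log2 fold change was 0.09.

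Beta-2 microglobulin is the light chain that every classical heavy chain needs to fold. Its gene *b2m* (Chromosome 4, 12785964 to 12795489, reverse strand, ENSDARG00000053136) had 89, 91, 94 and 134 counts in S2, S4, S5 and S8, against 133, 56, 91 and 91 counts in A, D, G and L. It was present in every clutch, with the lowest level in D. The means were 3.27 ± 0.793 CPM in mutant clutches and 3.04 ± 1.12 CPM in wild type clutches, and the genotypes overlapped (log2 fold change 0.11, SE 0.304, quasi-likelihood FDR 0.928). The light chain paralog *b2ml* averaged 40.1 ± 6.75 CPM in mutant clutches and 35.5 ± 3.67 CPM in wild type clutches (log2 fold change 0.18, SE 0.139, quasi-likelihood FDR 0.684).

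On the RPKM scale, which is CPM divided by the gene length in kb, the order of the 9 genes was led by *mhc1zba*, at 14.1 in mutant clutches and 11.7 in wild type clutches. *b2m* followed with means of 1.39 in mutant clutches and 1.29 in wild type clutches, and *tapbp.1* with 0.849 in mutants and 0.682 in wild types. *mhc1uba* averaged 0.642 in mutants and 1.17 in wild types, with the 4 clutches at 0 included. By these means it ranked below *tapbp.1* in mutants and above it in wild types. *psmb9a* came next with means of 0.334 in mutant clutches and 0.349 in wild type clutches, and the other 4 core genes had means of at most 0.226 in both. Over all 8 clutches, neighbours in this order overlapped, except that *mhc1zba* was above every other member in every clutch. Within a genotype some neighbours did not overlap. In wild types the lowest *tapbp.1* value was 0.524 RPKM and the highest *psmb9a* value 0.461 RPKM. In mutants the lowest *psmb9a* value was 0.255 RPKM and the highest *psmb12* value 0.230 RPKM. The lowest *mhc1zba* value was 10.03 RPKM in mutant clutches and 10.3 RPKM in wild type clutches, while *mhc1uba* reached 2.57 RPKM in S4 and 2.22 RPKM at most in wild type.

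Of the 8 genes tested, 0 passed an FDR of 0.05 and 0 had an unadjusted *p*-value under 0.05 in edgeR's quasi-likelihood test, against 9.41% of all genes tested at that unadjusted level. Their median log2 fold change was -0.12, with 3 positive and 5 negative values, and that of all genes tested was 0.02. None of the 8 was without overlap between the genotypes, against 4.28% of all genes tested. Limma-voom and the likelihood-ratio test of edgeR also called 0 of the 8 genes. DESeq2 called 0 of the 4 genes to which it gave an FDR, and gave none to *psmb8a*, *psmb9a*, *psmb12* and *psmb13a*. All 3 gave 0 of the 8 at an unadjusted *p*-value under 0.05.

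**Figure D3:**
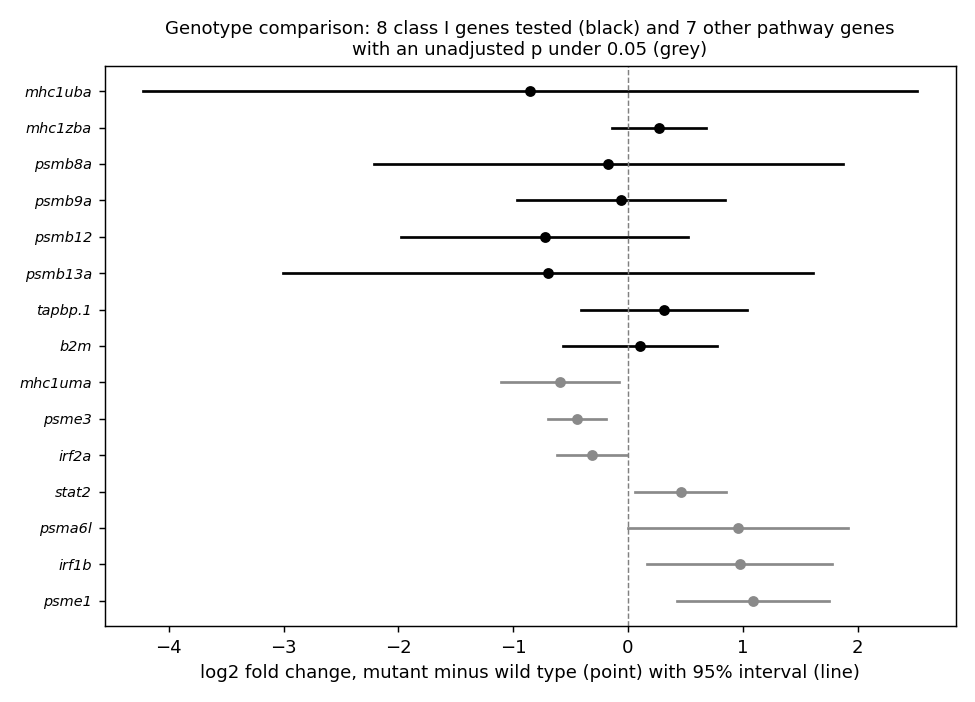
Log2 fold change of mutant against wild type (point) with its 95% interval (line) for the 8 class I genes tested (black) and for the 7 other pathway genes with an unadjusted p under 0.05 (grey). The interval of every black point includes 0, and that of *mhc1uba* is the widest, from -4.22 to 2.52.

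Among all genes, 38 had exactly 4 clutches at or under 3 counts and at least 1 clutch at 20 or more, in 20 different sets of clutches. Among these sets, whose size was taken from *mhc1uba*, the commonest was that of *mhc1uba* itself, with reads in S4, A, G and L. It held 9 genes, *mhc1uba* included, where the next set held 3. All 574 genes absent in some clutches and present in others fell into 98 sets, and sets of other sizes were not ranked. Of the 9 genes, 5 lay on Chromosome 19 and the 9 were spread over 5 chromosomes. No gene was absent in exactly the 4 mutant clutches and 3 were absent in exactly the 4 wild type clutches.

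Of the genes that shared the clutches of *mhc1uba*, *aqp10b*, a gene of the aquaporin family, lies nearest, at 7810028 to 7816886 of Chromosome 19. It had 0, 34, 2 and 0 counts in S2, S4, S5 and S8, against 5, 0, 21 and 18 counts in A, D, G and L. The neighbours *nuggc.2* and *nuggc.3*, which belong to a family of nuclear GTPases, had 26 and 37 counts in S4, at most 1 count in the other mutant clutches, 7 to 25 counts in A, G and L and 0 in D. These 3 genes made 4 with *mhc1uba* in the window from 250 kb before to 1000 kb after its start. The window held 53 genes with at least 20 counts in some clutch, and 5 of them were absent in some clutches and present in others, the fifth being *mhc1uca*.

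The other gene of Chromosome 19, *si:dkey-164n2.1*, starts at 36625275, far outside the window. It had 1, 31, 0 and 1 counts in mutant clutches and 77, 0, 59 and 38 counts in wild type clutches. On Chromosome 3, *si:ch211-151l1.2* had 1, 162, 1 and 1 counts in mutant clutches and 76, 2, 36 and 40 counts in wild type clutches. The set of clutches was thus not limited to genes near the MHC. What these genes have in common beyond the set of clutches was not tested.

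**Figure D4:**
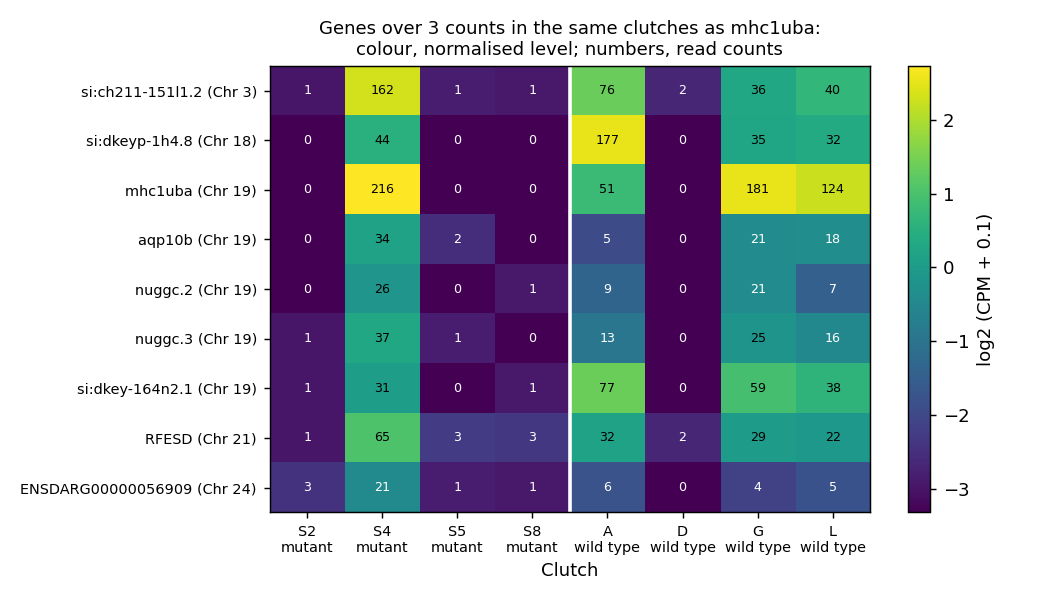
Read counts (numbers) and log2 (CPM + 0.1) (colour) of the 9 genes with over 3 counts in exactly the clutches where *mhc1uba* had reads. Columns are clutches, with the mutant clutches left of the white line and the wild type clutches right of it. S4 is the only mutant column over 3 counts and D the only wild type column at 3 counts or fewer.

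By the correlation of log2 CPM over the 8 clutches, among 18281 genes with a mean of at least 1 CPM, the 3 genes most like *mhc1uba* were *FAM219B* (Chromosome 18, Pearson r 0.98), *si:ch211-121a2.2* (Chromosome 20, r 0.98) and *CLIC4* (Chromosome 17, r 0.96). These values rest on 8 points in 2 clusters and are given as a description. *si:ch211-121a2.2* had 4, 236, 6 and 2 counts in S2, S4, S5 and S8, against 218, 2, 411 and 210 counts in A, D, G and L. *CLIC4*, a chloride intracellular channel gene, was present in all clutches, at 97.6 CPM in S4, 36.9 to 42.8 CPM in the other mutant clutches, 71.2 to 76.3 CPM in A, G and L and 46.8 CPM in D. None of the 3 lay on Chromosome 19, but the limit of 1 CPM had left out the Chromosome 19 genes with the clutches of *mhc1uba*. *aqp10b*, *nuggc.2*, *nuggc.3* and *si:dkey-164n2.1* had lower means and were not ranked. The ranking therefore cannot tell whether the genes most like *mhc1uba* lie near it.

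The table held 20 class I heavy chain genes in all, of which 3 were of the U, 7 of the Z, 9 of the L and 1 of the H lineage. Of these, 11 had over 3 counts in all 8 clutches, 2 had 3 or fewer in all 8 (*mhc1zfa* and *mhc1lla*), and 3 were absent in some clutches and present in others. Besides the U lineage genes *mhc1uba* and *mhc1uca*, the third was *mhc1lfa* of the L lineage, a group of heavy chains in fish that lacks typical features of classical class I molecules. No Z lineage gene was absent in some clutches and present in others.

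*mhc1lfa* (Chromosome 25, from 10947743, ENSDARG00000051712) had 0 counts in all 4 mutant clutches and 20, 0, 21 and 16 counts in A, D, G and L. It differs from *mhc1uba* in S4, which had *mhc1uba* reads but no *mhc1lfa* read, while S2, S5, S8 and D had no read of either gene. Of its 5 L lineage neighbours on Chromosome 25, *mhc1lla* had no read, *mhc1lga* had 4 to 17 counts in mutant clutches and 6 to 12 counts in wild type clutches, and *mhc1lia* had 32 to 76 counts in mutant clutches and 25 to 86 counts in wild type clutches, each in all 8 clutches. The remaining neighbours had few reads. *mhc1lja* had 0, 0, 0 and 1 counts in mutant clutches and 4, 0, 13 and 14 counts in wild type clutches, and *mhc1lda* had 0, 1, 0 and 0 counts in mutant clutches and 3, 0, 6 and 7 counts in wild type clutches. Before *mhc1lfa* on the same chromosome, *si:ch211-147g22.4* (from 10843985) had 0 counts in all mutant clutches and 50, 0, 79 and 114 counts in A, D, G and L. Because D shared the 0 of the mutant clutches, the genotypes overlapped, and the exact permutation test on CPM of *mhc1lfa* gave a two-sided *p* of 0.143.

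**Figure D5:**
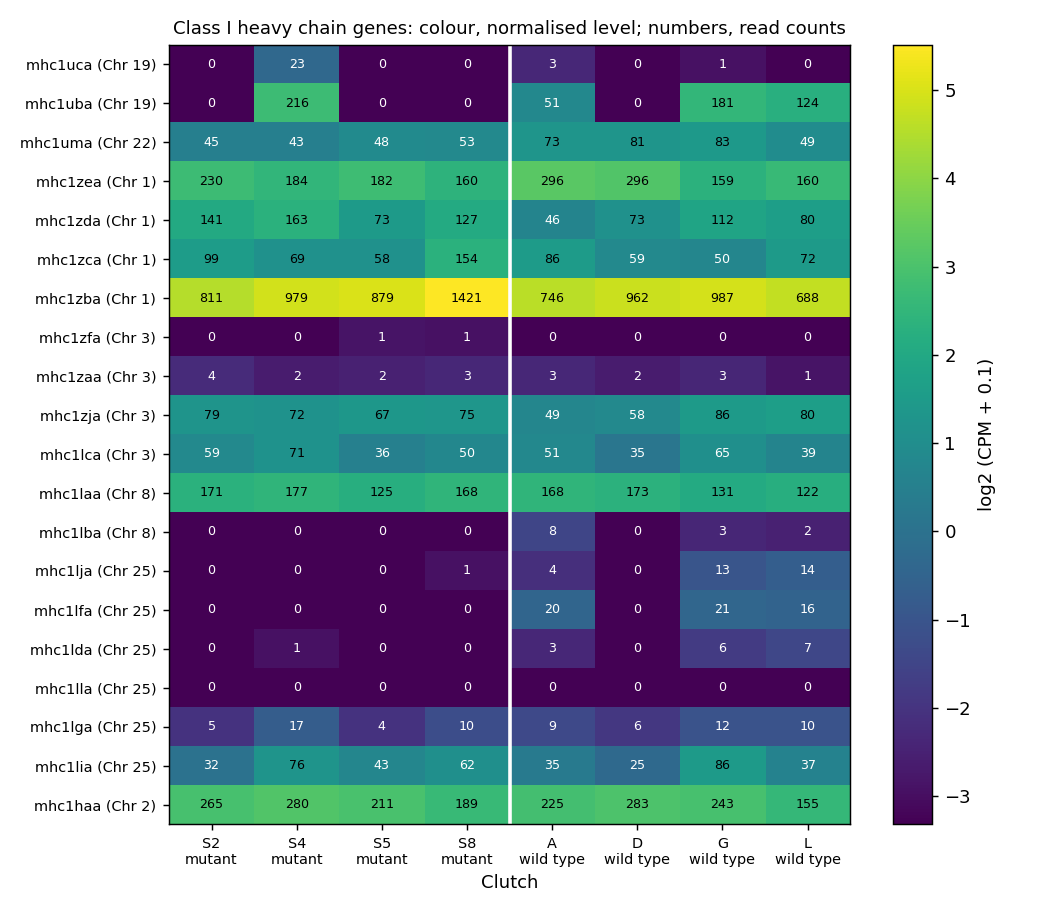
Read counts (numbers) and log2 (CPM + 0.1) (colour) of the 20 class I heavy chain genes, with mutant clutches left of the white line and wild type clutches right of it. The *mhc1zba* row is the brightest in every clutch (688 to 1421 counts), and the *mhc1uba*, *mhc1uca* and *mhc1lfa* rows hold both dark and brighter cells.

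Summed over the 20 genes, the heavy chain level was 27.4 to 38.3 RPKM in mutant clutches and 28.5 to 34.6 RPKM in wild type clutches, and these ranges overlapped. *mhc1zba* made up 36.3% to 51.3% of the sum in mutant clutches and 35.0% to 41.8% in wild type clutches. *mhc1uba* made up 7.28% in S4 and 0% in the other mutant clutches, and 2.18%, 0%, 6.41% and 6.01% in A, D, G and L. The number of heavy chain genes with over 3 counts was 12, 13, 11 and 11 in S2, S4, S5 and S8, against 15, 11, 15 and 15 in A, D, G and L. D was the wild type clutch with as few as the lowest mutant clutches.

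The third U lineage gene, *mhc1uma* on Chromosome 22, had 45, 43, 48 and 53 counts in S2, S4, S5 and S8, against 73, 81, 83 and 49 counts in A, D, G and L. On the CPM scale the genotypes did not overlap, at 1.52 ± 0.254 in mutant clutches and 2.28 ± 0.311 in wild type clutches. This gave a log2 fold change of -0.59 (SE 0.232), with an unadjusted *p*-value of 0.0275 and a quasi-likelihood FDR of 0.528. It was thus not called over all genes tested.

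Outside the heavy chains, the inducible beta subunit gene *psmb10* on Chromosome 4, named here after its values were seen, varied widely between clutches. It had 70, 166, 76 and 50 counts in S2, S4, S5 and S8, against 179, 63, 56 and 196 counts in A, D, G and L. L was the highest clutch and S8 the lowest, and both genotypes held clutches with high and with low counts (log2 fold change -0.54, SE 0.513, quasi-likelihood FDR 0.746). The beta subunit genes *psmb5*, *psmb6* and *psmb7* of the standard proteasome averaged 103, 102 and 139 RPKM in mutant clutches and 116, 107 and 145 RPKM in wild type clutches. *psmb10* averaged 1.35 RPKM in mutant clutches and 1.97 RPKM in wild type clutches, and the means of the 4 MHC-linked members were at most 0.349 in both.

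The wider pathway was covered by 76 further genes, of which 67 were tested and 0 passed an FDR of 0.05. With an unadjusted *p*-value under 0.05, mutants were higher in 4 and lower in 3, against 4.22% and 5.19% of all genes tested. Without S5, 22 of the 67 genes passed that level, against 19.6% of all genes tested in that fit. Non-overlapping genotypes were found for 6 of the 67 genes, which were *psme1*, *psme3*, *mhc1uma*, *irf1b*, *stat2* and the class II transactivator gene *ciita*, against 4.28% of all genes tested. Limma-voom and the likelihood-ratio test called 0 of the 67 genes and DESeq2 0 of the 61 to which it gave an FDR. Each had 7 of the 67 at an unadjusted *p*-value under 0.05. Of all 23567 genes tested, 2357 passed that level with limma-voom, 2223 with the likelihood-ratio test and 2467 with DESeq2.

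Of the proteasome activator genes, *psme1*, which encodes a PA28 subunit linked in mammals to interferon, had 62, 89, 65 and 136 counts in S2, S4, S5 and S8, against 41, 37, 46 and 39 counts in A, D, G and L. The genotypes did not overlap, at 2.81 ± 1.11 CPM in mutant clutches and 1.32 ± 0.184 CPM in wild type clutches (log2 fold change 1.09, SE 0.300, unadjusted *p* = 0.00418, quasi-likelihood FDR 0.528). The gene *psme3*, which encodes the nuclear form of the activator, had 1301 to 1510 counts in mutant clutches and 1461 to 2390 counts in wild type clutches. On the CPM scale it did not overlap either, at 45.1 ± 5.20 in mutant clutches and 61.2 ± 5.65 in wild type clutches (log2 fold change -0.44, SE 0.115, unadjusted *p* = 0.00288, quasi-likelihood FDR 0.528). In both genes the unadjusted *p*-value stayed under 0.05 in all 17 alternative settings, and the FDR ranged up to 0.834. The lowest FDR was 0.109 for *psme1*, with DESeq2, and 0.0766 for *psme3*, without S5. In that fit 19.6% of all genes had an unadjusted *p*-value under 0.05. Both genes were named for their *p*-values in these clutches, and the alternatives refit the same clutches, so they are no separate support.

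Regulators of class I genes gave the other pathway genes past that unadjusted level, beside *psma6l*. The interferon regulatory factor gene *irf1b* had a log2 fold change of 0.97 (SE 0.365, quasi-likelihood FDR 0.528), and the signal transducer gene *stat2* one of 0.46 (SE 0.181, quasi-likelihood FDR 0.528). For *irf2a*, another interferon regulatory factor, the value was -0.31 (SE 0.139, quasi-likelihood FDR 0.529). The alpha subunit gene *psma6l* of the 20S proteasome had a log2 fold change of 0.96 (SE 0.435, quasi-likelihood FDR 0.530). None of these was called over all genes tested. Their unadjusted *p*-values stayed under 0.05 in 14 of 17 alternatives for *irf1b*, 12 of 17 for *stat2* and 5 of 17 for *irf2a*. The same held in 10 of 16 for *psma6l*, and in 11 of 17 for the heavy chain gene *mhc1uma*.

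By list, the median log2 fold change was 0.09 over the 13 heavy chain genes tested, -0.54 over the 5 inducible or MHC-linked beta subunit genes and -0.15 over the 17 genes of the standard 20S proteasome. It was 0.11 over the 15 genes of peptide transport and loading and 0.24 over the 18 regulators. All 5 inducible or MHC-linked beta subunit genes had negative values, and 16 of the 17 standard subunit genes did too, against 46.9% of all genes tested, but 0 genes of either list passed the FDR. Of the 5, *psmb8a*, *psmb12* and *psmb13a* had at most 8 counts in a clutch, and the signs of *psmb8a* and *psmb9a* changed with single clutches. The standard subunit genes summed to 1550 to 2250 CPM in mutant clutches, with S5 the highest of all clutches, and to 1914 to 2051 CPM in wild type clutches. Genes of a list share clutches, so their signs are not independent. The median of all genes tested was 0.02 and stayed at or under 0.06 in the other scalings.

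Summed levels of interferon-stimulated genes and of leukocyte markers overlapped between the genotypes. The summed level of 17 interferon-stimulated genes was 7.67 to 12.9 CPM in mutant clutches and 7.78 to 11.2 CPM in wild type clutches, and 0 of the 12 tested passed the FDR. The 12 leukocyte marker genes matched, of 16 listed, summed to 68.8 to 104 CPM in mutant clutches and 71.4 to 94.3 CPM in wild type clutches. This sum lacks the macrophage markers *mpeg1.1* and *mfap4*, the neutrophil marker *mpx* and the mast cell marker *cpa5*, which were not matched. *cd79a* of B cells was at 0 counts in all clutches but S4, which had 1 count. In whole embryos, fewer cells of a type and less RNA per cell cannot be told apart. Of the 11 leukocyte markers tested, 6 had positive and 5 negative log2 fold changes, with a median of 0.03. Among these markers only *lyz*, the lysozyme gene of neutrophils and macrophages, had an unadjusted *p*-value under 0.05, with a log2 fold change of -0.54 (SE 0.215, quasi-likelihood FDR 0.528). Of all genes tested, 9.41% passed that unadjusted level.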

How the data were processed

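Reads were trimmed by the authors (AdapterRemoval) and aligned to GRCz11 (STAR, 2.5.3a). The deposited values are whole-number counts per gene and library from featureCounts (1.5.2). Per the file header, a read was counted when its mapping quality was 10 or more and it lay wholly inside exons of a single gene, on that gene's strand. Gene lengths and positions come from the same table. A name table gave symbols to 28988 of 32057 genes. *psmb8a* and *psmb9a* are listed there as PSMB8 and PSMB9 and were matched through RefSeq synonyms and their chromosome. Of 117 listed pathway symbols 100 were matched, and the others, *psmb8f*, *tap2d* and *mpx* among them, were not analysed here.

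Genes with over 1 count in 4 or more libraries were normalised with TMM and compared by genotype with the quasi-likelihood test of edgeR (4.0.16) in R (4.3.3), with no covariate and Benjamini-Hochberg adjustment over all genes tested (FDR). The likelihood-ratio test of edgeR, which the study used, was an alternative. It was run here with TMM and without the study's conditional quantile offsets, so it does not repeat the study's fit. Other alternatives were DESeq2 (1.42.0), limma-voom (3.58.1), RLE and upper quartile factors, 2 other filters on low counts, the replicate block and leaving out each clutch in turn. Leaving out A and D together was added after the data had been seen. CPM were normalised by TMM, and RPKM divide CPM by the gene length in kb. The common biological coefficient of variation was 0.250 and the median SE of a log2 fold change 0.220. At library sizes scaled by TMM, which were 26493047 (L) to 34823042 (S2), 3 counts are 0.0861 to 0.113 CPM.

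Genes named are the 9 members, pathway genes with an unadjusted *p*-value under 0.05 or absent in some clutches and present in others, such genes of the core MHC, and the 3 genes most like *mhc1uba*. Neighbours and genes with the same set of clutches, other copies of members, *tap1*, *psmb10*, *cd79a*, and the proteasome genes set beside the members were added once values were known. The members and lists were chosen with earlier results of these data known. Clutches are separate parental pairs, so *p*-values measure the spread between clutches of different pairs, whose parents could be related.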

Additional observations from a re-analysis of the deposited data

Results flagged for a closer look

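Within each group of 4 clutches, the gap of the highest or lowest clutch to its nearest neighbour was set against the whole range by Dixon's test at the 95% level. Of 43 groups examined, 6 had a gap past the critical value. The test's 5% is no yardstick for this count. *mhc1uca* and *mhc1lfa* were named for being absent in some clutches and present in others. For *mhc1uba* and *mhc1uca* the other mutant clutches were tied at 0. In 5 of the 6 it was S4 that stood above the other mutant clutches, with 6.55 CPM for *mhc1uba* and 0.697 CPM for *mhc1uca* against 0 in the others, and 0.606 CPM for *psmb9a* against 0.294 to 0.322 CPM. S4 also stood apart for 2 of the genes most like *mhc1uba*, at 7.16 CPM for *si:ch211-121a2.2* and 97.6 CPM for *CLIC4*, which were picked for following it. The last was D, at 0 CPM for *mhc1lfa*, with A, G and L between 0.604 and 0.656 CPM. These genes share clutches, so these gaps are not independent of each other, and what sets S4 and D apart was not tested.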

How the results depend on the processing

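In each of the 17 alternatives, 0 of the members and other pathway genes that it could test were called by genotype. These were 4 to 9 of the 9 members. The 4 were those left by the filter above 1 CPM in 4 libraries, which dropped the 4 proteasome members and *tap2a*. DESeq2 gave an FDR to 4. *tap2a* was tested with no filter only, and *mhc1uba* was not tested without S4, A, G or L or without A and D together. Fits without S4, S5, A or G, or without A and D together, did not test *psmb13a*. *mhc1uba* stayed the only member absent in some clutches and present in others in each alternative of that count, an outcome that the counts fix. Over all genes, 3 genes were called, against 31 with the likelihood-ratio test, 37 with DESeq2, 1 to 3 when a clutch was left out and 0 without A and D. The fit without A and D had only G and L as wild type clutches, and so less power. With the replicate number as a block, 0 genes were called. The deviations of same-numbered clutches correlated at 0.25 for S2 with A, -0.21 for S4 with D, -0.01 for S5 with G and 0.18 for S8 with L. Pairs with different numbers correlated at -0.35 (S2 with L) to 0.34 (S2 with D). These few values cannot decide whether the numbers pair the clutches. Among members without overlap between the genotypes, 0 in the fit reported became 1 with no filter (*tap2a*). That separation rests on library size, and the share of all genes without overlap in that setting is not given here. Without A and D the count became 1 (*psmb12*), a setting in which 15.1% of all genes did not overlap. The log2 fold change of *mhc1uba*, -0.85 in the fit reported, was -3.42 with limma-voom, -3.95 with the replicate block and -0.40 to -1.24 in the 4 fits without a clutch that tested it. The log2 fold change of *psmb8a* was 0.30 with limma-voom, and -0.71 to 0.36 when a clutch was left out. Leaving out a clutch gave -0.36 to 0.10 for *psmb9a* and -0.10 to 0.32 for *b2m*. The reversed values came from leaving out S4, G or L for *psmb8a* (0.10, 0.24 and 0.36), S2, S5, S8, A or G for *psmb9a* (0.04, 0.04, 0.04, 0.04 and 0.10) and S8 or D for *b2m* (-0.04 and -0.10). The other 5 tested members kept their sign in the alternatives that tested them, which were 12 for *mhc1uba* and 11 for *psmb13a*. Without S2, *mhc1zba* had a log2 fold change of 0.41 and an unadjusted *p*-value of 0.0298, with a quasi-likelihood FDR of 0.732. The number of pathway genes at an unadjusted *p*-value under 0.05 was 7, and 3 to 22 when a clutch was left out, with 22 without S5, where 19.6% of all genes passed that level. Over all genes, 2218 passed it in the fit reported, and 1116 (without A) to 4588 (without S5) when a clutch was left out. The causes were not tested. For *psmb8a*, *psmb13a* and *tap2a*, with at most 6 counts in a library, depth limits any comparison.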
